A study of Mus musculus with 2 samples.

Results

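The Cdk14 locus was taken as the stretch of chromosome 5 from 4800000 to 5430000 in mouse genome build mm9, a window of 630 kb. It was selected on the number of listed regions within it, so that number is a description here and no finding. Members are the listed regions that overlap this window, and there were 123 of them among 61400 in the whole list and 3453 on chromosome 5. Each listed region is a stretch where chromatin immunoprecipitation followed by sequencing (ChIP-seq) of histone H4 gave more tags after SAHA than the local background after DMSO. MC3T3 sc4 cells, a subclone of a mouse calvarial osteoblast line, were used, and all cells were kept in osteogenic medium with ascorbic acid and beta glycerol phosphate. One group received 20 µM SAHA, the histone deacetylase inhibitor vorinostat, and the other received its solvent DMSO, on day 4 for 2 hours and then through a collagenase digest of 40 min. Each group was 1 library, so every difference below compares these 2 libraries, and its spread between cultures is unknown. The antibody is labelled as histone H4, and the series describes its target as acetylated H4. A list of regions holds no marker genes by which the cell type could be checked.

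Cdk14 encodes a cyclin-dependent kinase, also called PFTAIRE kinase or Pftk1, that works with cyclin Y at the cell membrane. It phosphorylates LRP6, a co-receptor for Wnt ligands, in dividing cells and so ties Wnt signalling to the cell cycle. Wnt signalling through LRP5, LRP6 and beta-catenin is a main route that drives osteoblast formation. Acetylation of H4 tails marks open chromatin at promoters, enhancers and transcribed genes, and histone deacetylases remove it.

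RefSeq (GRCm38.p6) lists Cdk14 on the minus strand, with Fzd1, which encodes a Wnt receptor, as the neighbouring protein-coding gene on the side of lower coordinates and Pttg1ip2 on the other side. It also lists 2 genes inside Cdk14, Gm22897, a guide RNA, and Gm30151, a long non-coding RNA. On the minus strand a gene begins at its higher coordinates. The RefSeq table is in another build than the list, so the start site, exons and introns of Cdk14 were not placed on the regions below. The 250 bases before the RefSeq start of Cdk14 are shown, 5′ to 3′ on the minus strand, because histone acetylation is concentrated at CpG-rich promoters in general. Capitals mark each CG dinucleotide, which reads the same on both strands.
Cdk14 promoter: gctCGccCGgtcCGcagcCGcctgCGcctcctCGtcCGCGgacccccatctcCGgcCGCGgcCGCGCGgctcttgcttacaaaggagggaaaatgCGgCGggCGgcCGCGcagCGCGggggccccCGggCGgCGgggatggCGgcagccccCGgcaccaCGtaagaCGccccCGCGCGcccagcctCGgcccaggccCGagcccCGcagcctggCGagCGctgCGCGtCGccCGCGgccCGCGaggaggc
This stretch held 43 CG dinucleotides, 21 in its first 125 bases and 22 in the rest, and its GC content was 81.2%. Among 32851 RefSeq promoters of the same length the median was 6 CG dinucleotides and the median GC content 52.4%. At least 1 CG was found in 92.1% of these promoters, and 0.712% held as many as Cdk14 or more. Whether any listed region lies over this promoter was not determined.

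The regions filled the middle of the locus and were sparse toward both edges. By midpoint, 48 lay below the centre of the window and 75 above it, or 61.0% (95% Wilson interval 52.1 to 69.1%). The interval takes the regions as independent, which clustered neighbours are not, so it tests no difference between the sides. From the lower edge, a single region lay at 4800721 to 4803437 and another at 4830989 to 4831696. A stretch of 122.8 kb without any listed region followed, from 4831697 to 4954453. Beyond it lay 37 regions over 117.8 kb (4954454 to 5072229), a gap of 12.4 kb, and then 81 regions over 284.6 kb (5084663 to 5369300). Neighbours within each of these runs were at most 10 kb apart. A gap of 18.0 kb, from 5369301 to 5387335, separated the longer run from 3 last regions, which ended at 5399893. The remaining 30 kb of the locus up to its higher edge held no region.

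In bins of 30 kb, counted by region summit, 14 of the 21 bins held 7 to 12 summits. These 14 bins were consecutive, spanned 420 kb and held 118 of the 123 regions, or 95.9%. Of the other 7 bins, 4 held none and 3 held 1 to 3. The fullest bin, 4980000 to 5009999, held 12 summits. Coverage varied more than the count. It was 82.5% in the bin from 5310000 to 5339999, the highest of the locus, and 69.2% in the bin with 12 summits. The lowest coverages within the stretch were 21.3% at 5130000 to 5159999 and 24.8% at 5070000 to 5099999, where regions were as many but short. The median length there was 813.5 bp and 852 bp, against 2663.5 bp in the most covered bin.

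**Figure D1:**
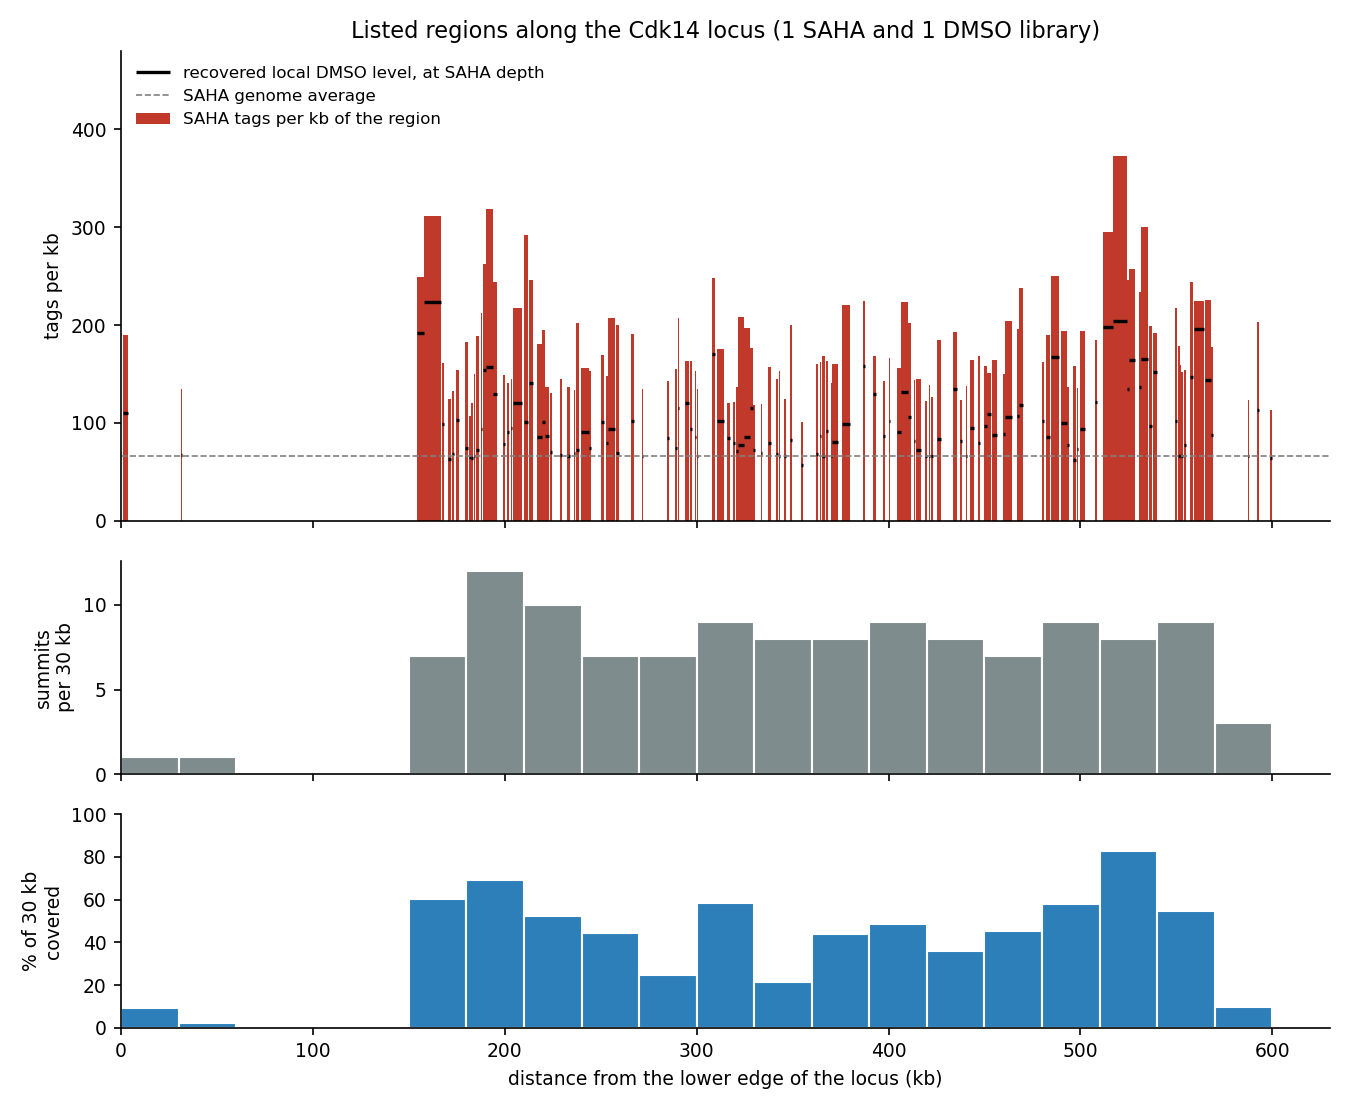
The x axis is the distance in kb from the lower edge of the Cdk14 locus. The upper panel shows each of the 123 regions as a bar of its width and its SAHA tags per kb, with the recovered local DMSO level at SAHA depth as a black line and the genome average of 66.1 tags per kb dashed; the lower panels show summits and percent covered per bin of 30 kb. Regions fill 14 neighbouring bins with 7 to 12 summits each, and the highest densities stand near both ends of that stretch.

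Among windows of the same size on chromosome 5 the locus held the most regions. The chromosome was tiled with 235 windows of 630 kb, of which the locus is one. The locus held 123 regions, and the other windows held a median of 6 (quartiles 0 and 23) and at most 81. In all, 78 windows held none and 11 held 50 or more. The locus was 1 of 235 windows but held 3.56% of the 3453 regions of the chromosome, 8.46 times the mean of 14.5 per window. Since the locus was chosen for its count, this rank describes it and tests nothing. Its covered share was 34.3%, second to the 39.0% of the window at 31890000 to 32520000. That window had 81 regions with a median length of 2027 bp, against 1284 bp at the locus. The next windows by count lay side by side at 104340000 to 104970000, with 80 regions and 27.0% covered, and at 103710000 to 104340000, with 79 regions and 19.4% covered.

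**Figure D2:**
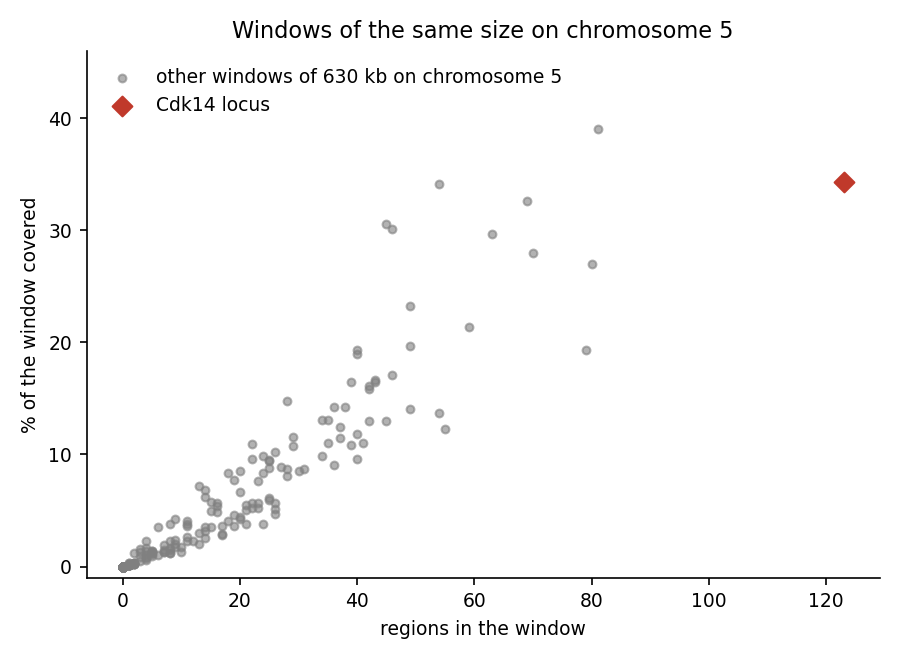
Each point is 1 of 235 windows of 630 kb on chromosome 5, with the number of listed regions on the x axis and the percent of the window covered on the y axis. The Cdk14 locus (red diamond) lies at 123 regions and 34.3%, to the right of all other windows, while 1 window with 81 regions has a higher coverage of 39.0%.

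How the locus compared with these windows in the length of its dense stretch depended on how bins were set. The longest row of neighbouring 30 kb bins with at least 7 summits was 14 bins at the locus and at most 4 in the other 234 windows, a minimum chosen after the values were seen. With bins shifted by 15 kb these lengths were 5 and at most 2, and with a minimum of 9 summits they were 2 at the locus and at most 2 elsewhere. With a minimum of 5 summits they were 14 and at most 9. The fullest single bin held 12 summits at the locus and up to 15 in another window. The widest empty stretch of the locus, 122.8 kb, was narrower than the median of 134.4 kb over the other windows with at least 20 regions.

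Neighbouring regions stood closer together at the locus than on chromosome 5 as a whole, which is sparse in most places, but not closer than in all crowded windows. The locus was chosen for its count, and many regions in a fixed span lie close together by construction. The spacing is therefore described and not tested. The median gap between neighbouring regions was 1033.5 bp at the locus (quartiles 256.5 and 2597.5 bp, 122 gaps) and 3196 bp on chromosome 5 outside it (3328 gaps). Gaps of at most 10 kb made up 96.7% of the gaps at the locus and 63.9% outside, and gaps of at most 1 kb made up 47.5% and 36.7%. At the scale of 1 fragment, 141 bp or less, the shares were 16.4% and 13.3%. Among the 73 windows with at least 20 regions, the locus had the 14th smallest median gap, with a minimum of 330 bp in the others, and was 15th from the top in its share of gaps of at most 1 kb, which reached 77.4% elsewhere. The windows at 31890000 and 103710000 had median gaps of 699 bp and 821.5 bp, with 55.0% and 51.3% of gaps at most 1 kb, and the window at 104340000 had 1162 bp and 49.4%. Summits of neighbouring regions were a median of 3012 bp apart, against 6249 bp outside. The gap of 122.8 kb was wide by comparison, since 4.17% of the 3452 gaps on the chromosome were as wide or wider.

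**Figure D3:**
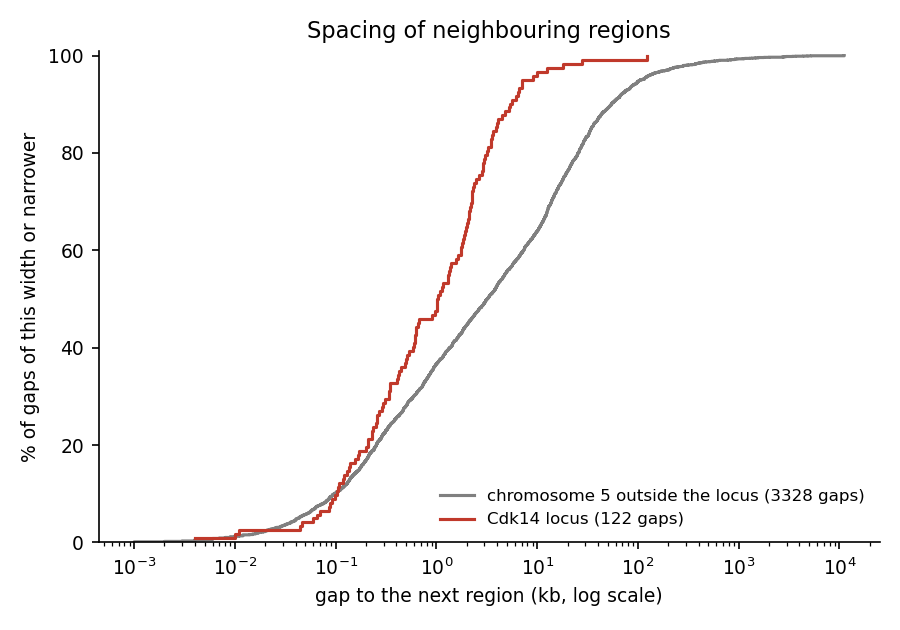
Cumulative percent of gaps (y axis) against gap width in kb on a log scale (x axis) for the 122 gaps at the Cdk14 locus (red) and 3328 gaps on chromosome 5 outside it (grey). The curves run close together below about 0.1 kb and part above it, reaching 96.7% and 63.9% at 10 kb.

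Single regions at the locus had a median length and tag density within 10% of those elsewhere on the chromosome. Their lengths ran from 497 to 8767 bp with a median of 1284 bp (quartiles 930.5 and 2217 bp), against a median of 1336 bp outside. Regions over 5 kb were 4 of 123 (3.25%), against 8.89% on chromosome 5 outside the locus and 7.85% in the whole list. SAHA tags ran from 63 to 2733 per region with a median of 223, and from 101.1 to 372.9 per kb with a median of 163.7, against 158.3 per kb outside. Among the 73 windows with at least 20 regions, the locus stood 47th from the top in median length and 28th in median density. It stood 7th in median summit fold, the authors' value for the SAHA height at the summit over the background set from DMSO nearby, with 4.28 against 3.86 outside. Longer regions were denser, with a Spearman rho of 0.66 across the 123 regions and 0.75 across those outside, which share the same libraries.

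Counts past fixed limits are given beside those of the whole list, which held the same contrast that chose the locus. A fold of at least 5 was reached by 31 of 123 regions (25.2%), against 19.0% of the whole list. A score of at least 100, where the score is 10 times the −log10 of the caller's p-value and the list begins at 50, was reached by 86 (69.9%), against 62.5%. The deposited false discovery rate (FDR) was high throughout, at 58.26% or more in every region of the locus. It was 100% in 11 regions (8.94%), against 11.6%. These 11 had the highest scores of the locus, and they include the longest region, the densest and the one of highest fold described below.

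A DMSO level was recovered for each region from its score and tags, and is expressed in units of the genome average of 66.1 tags per kb at SAHA depth. In 100 regions it equalled 1 of the backgrounds open to the caller: the region's own DMSO tags in 21, DMSO tags within 1 kb in 37 or within 10 kb in 28, and the genome average in 14. The split between 1 kb and 10 kb is less sure. A 10 kb count that is a multiple of 10 gives the same level as a 1 kb count and was put under 1 kb. The split was not checked on simulated data. In the other 23 regions the level is approximate. In the 79 regions matched to a window or to the genome average the DMSO tags may be fewer than this level, and the ratio of SAHA tags to the level is then a lower bound. The median level at the locus was 1.32 (quartiles 1.07 and 1.63, range 0.859 to 3.38), against 1.27 outside. The ratio of SAHA tags to the level had a median of 1.86 (quartiles 1.67 and 2.06, range 1.15 to 2.90), against 1.80 outside. It was at least 2 in 40 of the 123 regions (32.5%), against 28.0% of the 61106 regions of the list with a recovered level. Its median lay between 1.62 and 2.06 in each of the 14 filled bins. Within a bin the single regions spread more widely, from 1.15 to 2.70 in the bin from 5340000 to 5369999.

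DMSO tags themselves could be counted in 21 regions, 18 of them in the longer run. Such a count is recovered only where it exceeds the caller's other backgrounds. The 21 regions are thus selected for high DMSO tags of their own, and their ratios need not stand for the whole locus. Summed over these 21 regions, 8820 SAHA tags stood against 3008 DMSO tags, or 4881 at SAHA depth. The ratio was 1.81 (95% exact binomial interval 1.73 to 1.88, counting error only). The region at 5121697 to 5124494 had the highest ratio of the 21. It held 583 SAHA and 134 DMSO tags, a ratio of 2.68 (interval 2.22 to 3.26). The region at 5311750 to 5316984 held the most tags, 1544 SAHA and 638 DMSO, with a ratio of 1.49 (1.36 to 1.64). These intervals do not overlap, for regions picked as the highest in ratio and in tags. The lowest ratio, 1.42 (1.13 to 1.79), was at 5186510 to 5187636, from 253 SAHA and 110 DMSO tags. Among the shallowest, the region at 5141497 to 5142233 held 107 SAHA and 31 DMSO tags, and its ratio of 2.13 had an interval of 1.42 to 3.28. All 21 intervals lay above 1, which the caller's cutoff for listing a region favours.

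**Figure D4:**
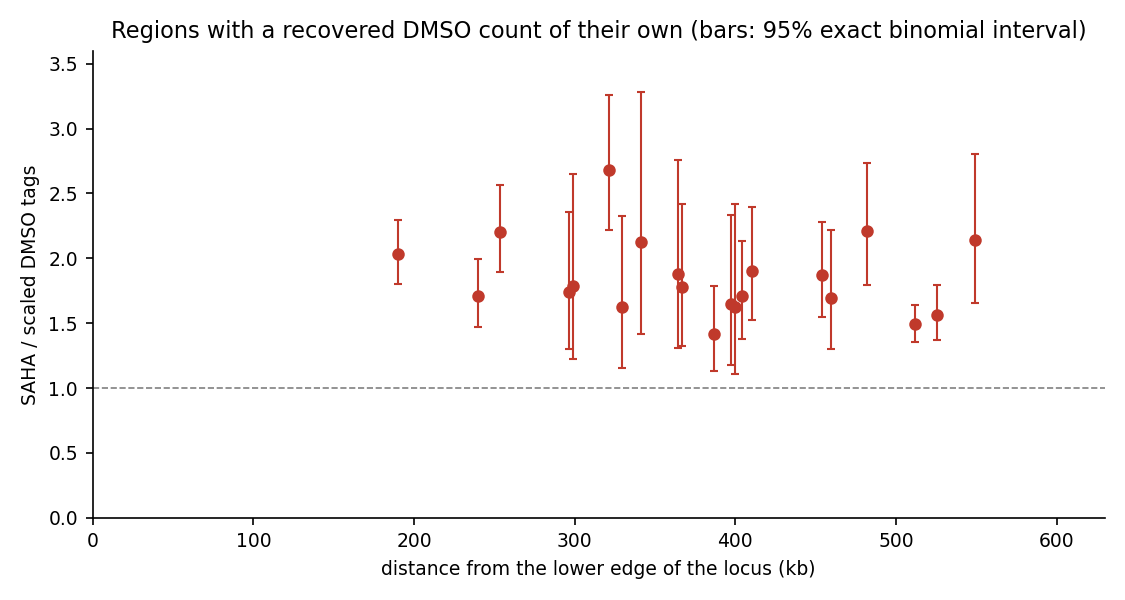
Ratio of SAHA to scaled DMSO tags (y axis) in the 21 regions whose own DMSO count was recovered, by distance in kb from the lower edge of the locus (x axis); bars are 95% exact binomial intervals and cover counting error only. Ratios run from 1.42 to 2.68, and the dashed line marks equal tags in both libraries.

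The densest regions stood where the DMSO level was high as well. The listing favours this, since the tags of a listed region must exceed its level. The longest region, 8.77 kb at 4957845 to 4966611, opens the shorter run together with its neighbour at 4954454. It held 2733 SAHA tags (95% Poisson interval 2631 to 2837), 311.7 per kb, at a DMSO level of about 3.38 times the genome average and a ratio of about 1.40. The next longest, 6.99 kb at 5317241 to 5324226, lies near the higher end of the longer run. It was also the densest region of the locus and the one of highest score, with 2605 SAHA tags (2506 to 2707), 372.9 per kb, a score of 1716.99 and a fold of 5.54. Its DMSO level was about 3.09 and its ratio about 1.83. Directly below it the third longest, 5.24 kb at 5311750 to 5316984, had 294.9 SAHA tags per kb and a DMSO level of 2.99. 

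The 3 regions of highest summit fold were shorter and lay at low DMSO levels. This is in part built in, since the fold is taken over a background set from DMSO. The median fold was 4.355 in the 46 regions under 1.2 times the genome average and 3.64 in the 19 at 2 times or more. Single regions among those 19 had folds over 5, such as 5.73 at 5012433 to 5014780. The highest fold, 8.16, was at 4984771 to 4986753, 1.98 kb with 374 SAHA tags (337 to 414), a DMSO level of about 1.10 and a ratio of about 2.59. At 5165584 to 5166730 the fold was 7.61, with 193 SAHA tags (167 to 222) in 1.15 kb. Its level was the genome average, and the ratio was at least 2.54. The third, with a fold of 6.94, was the region of 583 SAHA and 134 DMSO tags described above. Between these kinds of region stood 5009765 to 5012296, with the highest recovered ratio of the locus, at least 2.90, from 740 SAHA tags (688 to 795) at a level of at most 1.52 and a score of 1340.85. The region at 4989975 to 4993670 was dense in both libraries, with 1178 SAHA tags, 318.7 per kb, against 357 DMSO tags, a ratio of 2.03 (1.80 to 2.30).

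Over all 123 regions, a higher DMSO level went with more SAHA tags per kb (Spearman rho 0.79) and with a lower ratio (rho -0.57), as outside the locus (0.78 and -0.60). Both relations are in part built in. The level is recovered from the SAHA tags and the score, and a region is listed only where its tags exceed that level. For the ratio, the level is its divisor, and longer regions pass the cutoff at a smaller ratio. In the 46 regions under 1.2 times the genome average the median ratio was 2.02, and in the 19 regions at 2 times or more it was 1.56. Outside the locus the values at those levels were 1.95 and 1.41. Of these 19 regions 7 lay between 5311750 and 5339972 and 3 between 5357045 and 5368183, next to each other at the higher end of the longer run.

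**Figure D5:**
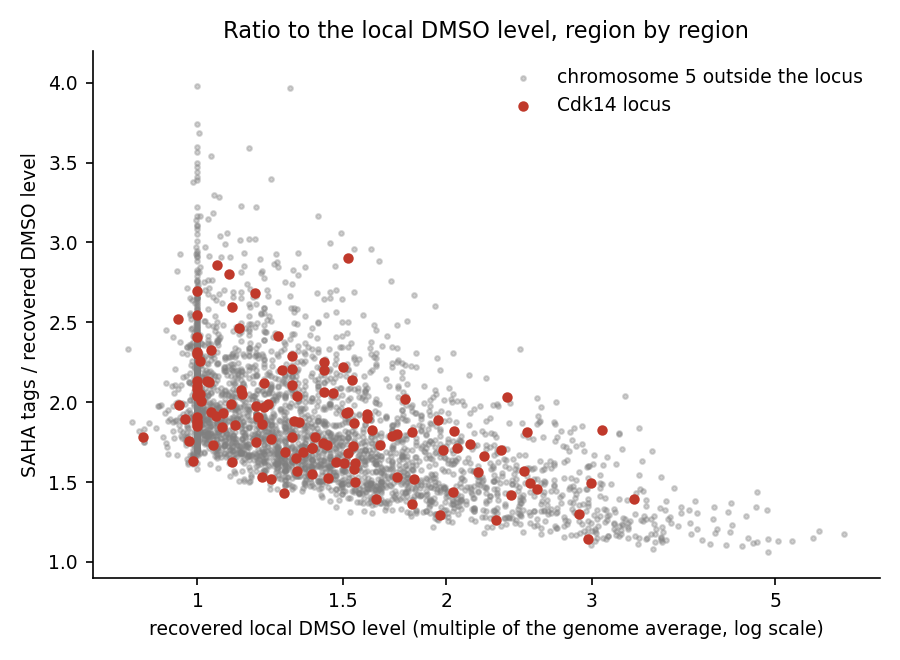
Ratio of SAHA tags to the recovered local DMSO level (y axis) against that level as a multiple of the genome average on a log scale (x axis), for the 123 regions of the Cdk14 locus (red) and regions on chromosome 5 outside it (grey). The red points lie within the grey cloud, with a median ratio of 2.02 below a level of 1.2 and 1.56 at 2 or above.

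When neighbours no more than 1 kb apart were joined, the 123 regions formed 65 blocks, of which 35 were single regions. The longest blocks were of nearly equal length and differed in make-up. The block at 4979108 to 4995810 joined 9 regions over 16.7 kb with 224.3 SAHA tags per kb covered. The one at 5311750 to 5328447 joined 4 regions over 16.7 kb with 318.3 tags per kb. The third, at 4954454 to 4968333, joined 3 regions over 13.9 kb with 283.7 tags per kb. After joining, the locus held the most of any window of the tiling, 65 against at most 47, which its selection by count favours.

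The longer run was set beside the runs of next most regions in the whole list, joined by the same rule. These lay at chromosome 7, 89491921 to 89774247 (80 regions), chromosome 4, 97453054 to 97679569 (65 regions), and chromosome 13, 15560928 to 15736554 (56 regions). Its regions stood farther apart. The median gap within the run was 1225 bp, against 395 bp, 706.5 bp and 528 bp in the others in that order. Gaps of at most 1 kb made up 47.5% at Cdk14 and 72.2%, 60.9% and 60.0% in the others. The covered share was 49.5%, against 65.1%, 57.2% and 50.5%. A DMSO level of at least 2 times the genome average was found in 14 of its 81 regions (17.3%), near the 16.1% of the whole list, and in 6.33%, 12.3% and 1.79% of those in the others. The median summit fold was alike in these runs, 4.29 at Cdk14 and 4.37, 4.29 and 4.28 in the others. The shorter run of the locus, with 37 regions, ranked 30th of the 215 runs of 20 or more regions in the list. It had a median gap of 642.5 bp and was 58.4% covered. These runs were chosen for their counts, so the differences are described and not tested. The counts and their order depend on the joining limit of 10 kb. The widest gap was 9.94 kb within the longer run at Cdk14, and 9.43, 8.78 and 8.695 kb within those on chromosomes 7, 4 and 13. Counts of the other runs at other limits are not given here.

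At the edges of the window, the first region inside lay 6.01 kb above the last one outside. The region outside, at 4793650 to 4794707, held 144 SAHA tags with a fold of 2.77, and the one inside, at 4800721 to 4803437, held 517 with a fold of 4.00. At the higher edge the last region inside, at 5398880 to 5399893, held 115 SAHA tags with a fold of 5.36. The next outside, at 5431785 to 5432440, was 31.9 kb away and held 88 tags with a fold of 4.50. An empty stretch in this list says that no SAHA-high region was listed there, and the tags of either library in such stretches were not analysed here.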

How the data were processed

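Per the submitters' processing notes, MACS 1.4.0rc2, SAMtools, BWA 0.5.9 and CASAVA 1.7.0 handled the reads, in build mm9. Per the file headers, MACS was run with SAHA as the ChIP file and DMSO as the control, a p cutoff of 1e-05, an effective genome size of 1.87e+09 bp, a fragment size of 141 bp, at most 3 duplicate tags per position and local backgrounds over 1 kb and 10 kb. Of 126938706 SAHA tags 97.4% were kept, and of 116209155 DMSO tags 65.6%, so DMSO tags were scaled by 1.62. The scaling uses the tags kept, and whether the unequal loss of duplicates affects single regions was not tested. The tag column, per the file headers, holds whole counts of SAHA tags. The deposited score is 10 times the −log10 of the caller's p-value. The deposited fold enrichment is a ratio at the summit, and the deposited FDR is a percent.

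The DMSO level of a region was computed as the Poisson mean under which exceeding the region's tag count has the p-value that its score encodes. It was matched to the caller's possible backgrounds within the rounding of the score (0.005). Chance alone would match 0.229 of the 123 regions to a DMSO count of their own and 1.74 to a 10 kb window. That the caller takes the highest background is general knowledge of the tool and not in the file headers. In a test on 19043 simulated regions with lengths drawn from the whole list, 99.2% of own counts assigned were right. The level was off by at most 0.00329%. The simulated scores came from the same formula that the recovery inverts, so this small error was set in advance and is no independent check. They also came from exactly the listed tags, which unmatched regions, 23 of the 123 here, may not share. Chromosome 5 was tiled from 3540000 to 151590000 so that the locus is 1 tile. A region counts where it overlaps a window. Computation used scipy 1.17.1, pandas 2.3.3 and numpy 2.4.6 under Python 3.11.15. Intervals are 95%.

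The locus was chosen, and the rules below were set, with earlier results of these data known. Regions were named as the 3 longest, the 3 of highest fold, density or score, and the ends of the longest run, with the 3 widest gaps and the 3 other fullest windows; others were named after their values were seen. With 1 library per condition no test was made. Other genes of the Wnt and cyclin Y pathway were not looked up, since no mm9 annotation was used here. Alternatives were a stricter score, joining, other window rules, other gap limits and no depth scaling.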

Additional observations from a re-analysis of the deposited data

How the results depend on the processing

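Of 28 alternatives, 12 left the value within its interval or, for a count, within 1.5 times, and 16 did not. These intervals take clustered regions as independent. For the covered share the interval, 34.2 to 34.4%, takes single bases as independent. They are therefore too narrow, and the split into 12 and 16 is a description and no measure of stability. By number of regions the locus ranked first of the chromosome 5 windows compared under all 5 alternatives for that rank. As the locus was chosen for its count, this rank describes it and tests nothing. It held 123 regions against at most 86 in sliding windows, and 75 against at most 56 in smaller windows, 2 to a locus. Sliding windows that share most of the locus are not among those compared. One moved toward higher coordinates can hold more regions than the locus. At a score of at least 100 the covered share was 27.8%, the median length 1547 bp, the density 186.5 SAHA tags per kb, the gap 1757 bp, the fold 4.58, the ratio 1.94 and the longest run 29 regions. With neighbours within 1 kb joined, there were 65 regions with a covered share of 37.1%, a typical length of 1984 bp (median) and gaps of 2405.5 bp (median). The longest run held 31 regions with gaps of up to 5 kb and 121 with gaps of up to 20 kb. Pooled over regions the density was 203.4 tags per kb, and without depth scaling the ratio was 3.03. The stretch of filled bins, an alternative added after the data were seen, was 2 bins at a minimum of 9 summits and 5 with bins shifted by 15 kb. Stricter limits and joining leave fewer regions by construction. Without depth scaling the ratio rises by the scaling factor of 1.62, and a run grows with its gap limit, also by construction. For the remaining shifts the cause was not tested. No paired analysis was possible because each condition had 1 library.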

Other observations

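A region at the higher end of the longer run, chosen after its values were seen, had the lowest recovered ratio of the locus. At 5359190 to 5364348 it spanned 5.16 kb and held 1160 SAHA tags (95% Poisson interval 1094 to 1229), with a score of 56. Its DMSO level was about 2.97 times the genome average and its ratio about 1.15, and this level matched no background. Its neighbours at 5357045 to 5358959 and at 5365027 to 5368183 had ratios of 1.66 and 1.56 at levels of 2.22 and 2.18.

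Some neighbouring regions were listed apart across very few bases. The gap from 5368184 to 5368187 was 4 bp, that from 5352662 to 5352671 was 10 bp and that from 5019518 to 5019528 was 11 bp. In all, 20 of the 122 gaps at the locus were no wider than the fragment size of 141 bp. In 6 of the 123 regions the recovered level was more than 0.1% under the genome average, a value the caller could not have used. That is 4.88% of the 123, against 4.53% on chromosome 5 outside the locus and 3.69% of the whole list. All 6 were among the 23 regions whose level matched no background. The longest region, the densest and the one of highest fold were also among those 23, and their levels and ratios are approximate.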
